A study of Mus musculus with 6 samples.

Results

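The 8 genes examined here encode the parts of the activin system that act at the cell surface. They are the ligand subunits *Inhba* and *Inhbb*, the secreted proteins *Fst*, *Fstl1* and *Fstl3*, and the receptors *Acvr1b*, *Acvr2a* and *Acvr2b*. They were chosen by symbol from the 54532 genes of the count table. Each symbol matched a single gene, and all 8 passed the filter on low counts that left 14801 genes for testing. The measured level of *Inhbb* in Gli1+ cells was 4.07 times that in Gli1- cells, with every Gli1+ library above every Gli1- library. Such a separation, with Gli1+ the higher, was seen for 4.04% of all genes tested. *Inhba* had the highest level per length of the 8 in every library, and its levels in both populations overlapped. With edgeR's quasi-likelihood test none of the 8 passed the threshold for a differentially expressed gene (DEG) after adjustment over all genes tested. The same test called 0 of all 14801 genes. DESeq2 with the replicate number as a block called *Inhbb*, where it called 3.27% of the genes it adjusted.

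Activins are secreted dimers of the TGF-beta superfamily. The product of *Inhba*, the βA subunit, forms activin A, and the product of *Inhbb*, the βB subunit, forms activin B. Either subunit can instead pair with the product of *Inha* to form an inhibin, which opposes activin. An activin binds a type II receptor (ACVR2A or ACVR2B), which recruits and phosphorylates the type I receptor ACVR1B, and this in turn phosphorylates SMAD2 and SMAD3. Follistatin, the product of *Fst*, and its relative FSTL3 wrap around the ligand and keep it from its receptors. FSTL1 is a secreted glycoprotein with a follistatin-like domain. The type II receptors also bind several BMPs and growth differentiation factors, so they are shared between branches of the superfamily. In the skeleton, activins are known as regulators of chondrocyte differentiation and of bone mass.

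RNA was sequenced from cells of 1-month-old *Gli1-CreERT2; tdTomato* mice on the c57BL/6 background, harvested 24 h after tamoxifen (TAM). Under TAM, a recombinase expressed from *Gli1* switches on the red reporter tdTomato for good. Cells without CD45, CD31 and Ter119, which mark leukocytes, endothelial cells and erythroid cells, were sorted into Gli1+ (tdTomato+) and Gli1- (tdTomato-) cells, with 3 libraries of each. The cells of both populations were taken from the same animals and so share the alleles and the TAM. A Gli1-expressing cell in which the reporter was not switched on would be sorted as Gli1-. The labels name the growth plate as the tissue, whereas the study's text for this experiment names costal cartilage. The labels do not say whether a library came from an individual mouse or from a pool, so p-values measure the spread between these libraries. Sex is not given per library. In bulk RNA of this kind, fewer cells of a type and less RNA per cell cannot be told apart.

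The libraries held 17114101 to 18602482 counts. *Gli1* itself, whose locus drives the label, was at 4.55 to 7.98 CPM (counts scaled to a common library size, with TMM factors) in the Gli1+ and 0.724 to 2.43 CPM in the Gli1- libraries. All 8 listed chondrocyte markers had counts, and their summed level was highest in replicate 2 of both populations, at 17650 (Gli1+) and 23210 CPM (Gli1-), against 5733 to 7471 CPM in the other 4 libraries. Most of that sum was *Col2a1* (type II collagen, 12240 and 13530 CPM there), whereas *Acan* and *Sox9* of the same list were lowest in replicate 2 of each population. Gli1+ replicate 1 stood apart in having 15000 genes with a count, where the others had 20666 to 23360. Gli1- replicate 1 stood apart in leukocyte RNA despite the gate. Its 7 neutrophil markers summed to 3103 CPM against 9.40 to 72.3 CPM elsewhere, and it held 54.7 CPM of *Ptprc*, which encodes CD45, against at most 1.10 CPM in the other libraries. The 5 macrophage markers summed to 203 CPM in this library and to 19.4 to 157 CPM elsewhere. For each of the 8 genes the log2 fold change (log2FC) without these libraries is given below.

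*Inhbb* (ENSMUSG00000037035, mm10, chromosome 1, 119415465 to 119422248, minus strand) showed the largest difference of the 8 genes. Its levels were 6.98, 23.7 and 12.03 CPM in Gli1+ replicates 1, 2 and 3, from 132, 386 and 229 counts. In Gli1- cells they were 2.64, 5.64 and 2.22 CPM, from 51, 85 and 42 counts. Every Gli1+ library thus lay above every Gli1- library, and the lowest Gli1+ value stood close to the highest Gli1- value. The separation was wider within replicate numbers, with log2 ratios of 1.405, 2.07 and 2.44 for numbers 1, 2 and 3. Means were 14.2 ± 8.58 (Gli1+) and 3.50 ± 1.86 CPM (Gli1-) (SD, n = 3 each).

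The log2FC of *Inhbb* (Gli1+ minus Gli1-) was 2.02 with a standard error of 0.66 and a 95% interval from 0.50 to 3.55. Its unadjusted p-value was 0.0153 and its adjusted p 0.9999 (edgeR's quasi-likelihood test, Benjamini-Hochberg over 14801 genes). A 2-sided exact permutation test of the log2 CPM gave p = 0.1, the smallest that 3 libraries against 3 allow. Across all genes tested, the populations did not overlap for 8.49%, and for 4.04% Gli1+ was the higher. Leaving out Gli1+ replicate 1 gave a log2FC of 2.33 for *Inhbb*, and leaving out Gli1- replicate 1 gave 1.86. The unadjusted p of *Inhbb* in edgeR was above 0.05 in 3 of the 6 fits that left out a library, at 0.0742 without Gli1+ replicate 2, 0.0503 without Gli1- replicate 1 and 0.0587 without Gli1- replicate 3. With the replicate number as a block the log2FC was 1.97 with a standard error of 0.40 (unadjusted p = 0.00333, adjusted p = 0.35, edgeR). DESeq2's Wald test with the same block gave 1.96 with an adjusted p of 0.00459 and called *Inhbb* a DEG, where it called 3.27% of the genes it adjusted. With both replicate 1 libraries left out, the same DESeq2 fit called *Inhbb* at a log2FC of 2.23 (adjusted p = 3.64e-07), and called 6.03% of the genes it adjusted. It did not call *Inhbb* without replicate 2 (adjusted p = 0.475) or without replicate 3 (adjusted p = 0.489), fits that called 1.57% and 0.57% of the genes they adjusted. Without the block DESeq2 did not call it either, and called 0.227% of genes.

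*Inhba* (ENSMUSG00000041324, mm10, chromosome 13, 16011851 to 16031621, plus strand) had the highest level per length of the group. The Gli1+ libraries held 2275, 286 and 1511 CPM for replicates 1, 2 and 3. The Gli1- libraries held 269, 296 and 826 CPM. Both replicate 2 libraries and Gli1- replicate 1 were low and close to each other, and Gli1+ replicate 1 was the highest. The populations overlapped, since Gli1+ replicate 2 lay below Gli1- replicates 2 and 3. Within replicate numbers 1, 2 and 3 the log2 ratios of Gli1+ to Gli1- cells were 3.08, -0.05 and 0.87.

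For *Inhba* the log2FC was 1.55 with a standard error of 0.81 and a 95% interval from -0.32 to 3.42 (unadjusted p = 0.0921, adjusted p = 0.9999, edgeR's quasi-likelihood test). The exact permutation test gave p = 0.3. Without Gli1+ replicate 1 the log2FC was 0.94, without Gli1- replicate 1 it was 1.26, and without Gli1- replicate 3 it was 2.26. With DESeq2, the replicate block and both replicate 1 libraries left out it was 0.40. The replicate 2 libraries, low in *Inhba*, were also those with the highest *Col2a1*. Within each population they had the lowest *Acan* and *Sox9*. Within each population they also had the highest sums of the fibroblast or perichondrium markers (3889 CPM in Gli1+, 9585 CPM in Gli1-) and hypertrophic markers (8326 and 9550 CPM). Not all members followed their sums. Among the Gli1+ libraries the hypertrophic marker *Mmp13* was lowest in replicate 2 (2861 against 5328 and 4859 CPM). Among the Gli1- libraries it was highest in replicate 3. *Postn* and *Pdgfra* of the fibroblast list were highest in replicate 1 among the Gli1+ libraries and in replicate 2 among the Gli1- libraries. The other members of both lists were highest in replicate 2 of each population. The part of these markers in the spread of *Inhba* was not tested. *Inhba* overlaps the opposite-strand genes *Gm48444* and *B230303A05Rik*, which had 278 and 260 counts in all.

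The sequences just upstream of both ligand genes are shown because these genes had the largest log2FC of the 8. Each is the 250 bases before the RefSeq transcription start (GRCm38.p6), 5′ to 3′ on the strand of the gene, chr13:16011601-16011850 on the plus strand for *Inhba* and chr1:119422249-119422498 on the minus strand for *Inhbb*. Capitals mark a TATAAA match in *Inhba* and a GC box match (GGGCGG, here on the opposite strand) in *Inhbb*.
Inhba: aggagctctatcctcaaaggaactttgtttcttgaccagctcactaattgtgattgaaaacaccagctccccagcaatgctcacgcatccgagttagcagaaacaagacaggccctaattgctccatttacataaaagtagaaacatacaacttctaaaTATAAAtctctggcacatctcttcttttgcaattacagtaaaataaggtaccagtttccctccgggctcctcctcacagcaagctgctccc
Inhbb: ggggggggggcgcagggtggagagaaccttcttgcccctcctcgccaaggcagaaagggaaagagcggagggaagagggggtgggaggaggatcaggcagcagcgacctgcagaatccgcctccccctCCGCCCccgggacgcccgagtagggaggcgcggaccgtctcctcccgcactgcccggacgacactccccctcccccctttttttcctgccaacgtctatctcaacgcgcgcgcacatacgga
The upstream windows differ in composition, with 43.2% G and C for *Inhba* and 68.0% for *Inhbb*, against a median of 52.4% over 32851 RefSeq promoter windows of this length. The TATAAA match of *Inhba* lies 91 to 86 bases before the start, and 12.4% of all windows hold one on either strand, as does that of *Fstl3*. The GC box match of *Inhbb* lies 122 to 117 bases before the start, and 32.7% of windows hold one. RefSeq windows were found for 7 of the 8 genes, and 6 of these 7, all but *Inhba*, held a GC box match. The binding sequence of GLI factors (GACCACCCA, both strands) was in 0 of the 7 windows and in 0.225% of all windows. Neither AP-1 (TGANTCA, 6.75% of all windows) nor the cyclic AMP response element (TGACGTCA, 1.55%) had a match in any of the 7, nor did the palindromic SMAD element (GTCTAGAC, 0.167%). The shorter CAGAC was in 3 of the 7 windows, those of *Acvr2a*, *Acvr2b* and *Fstl3*, and in 42.2% of all.

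Among the secreted proteins that bind activin, *Fst* (ENSMUSG00000021765, mm10, chromosome 13, 114452290 to 114458951, minus strand) divided the libraries by replicate number rather than by population. Gli1+ replicates 1, 2 and 3 held 24.3, 4.54 and 4.99 CPM, and Gli1- replicates 1, 2 and 3 held 32.3, 3.65 and 9.31 CPM. Replicate 1 was the highest library of each population. The log2FC was -0.42 with a standard error of 0.94 and a 95% interval from -2.57 to 1.73 (adjusted p = 0.9999, edgeR's quasi-likelihood test). Leaving out only Gli1- replicate 1, the library with the neutrophil markers, reversed the log2FC to 0.78. With DESeq2, the replicate block and both replicate 1 libraries left out, the log2FC was -0.32. Without Gli1+ replicate 1 it was -1.71. With the replicate block the standard error was 0.38 and the interval ran from -1.28 to 0.60 around a log2FC of -0.34.

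*Fstl3* (ENSMUSG00000020325, mm10, chromosome 10, 79777272 to 79782630, plus strand) was low in all libraries, with 0.90, 5.16 and 4.67 CPM for Gli1+ replicates 1, 2 and 3 and 3.77, 3.12 and 3.07 CPM for the Gli1- replicates. Gli1+ replicate 1, with 17 counts, was the lowest of the 6 and Gli1+ replicates 2 and 3 were the highest. The log2FC was 0.11 with a standard error of 0.75 and a 95% interval from -1.61 to 1.82. With limma-voom it was -0.27 and with the edgeR replicate block -0.17, so no direction can be given. Without Gli1+ replicate 1 it was 0.54, and without Gli1- replicate 1 it was 0.21.

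*Fstl1* (ENSMUSG00000022816, mm10, chromosome 16, 37776873 to 37836514, plus strand) came after *Inhba* in level per length. Gli1+ replicates 1, 2 and 3 had 160, 68.4 and 65.3 CPM and the Gli1- replicates 139, 148 and 63.5 CPM. Replicate 3 of both populations was low, Gli1+ replicate 1 and Gli1- replicates 1 and 2 were high, and the populations overlapped. The log2FC was -0.25 with a standard error of 0.53 and a 95% interval from -1.46 to 0.96 (adjusted p = 0.9999, edgeR's quasi-likelihood test). Leaving out Gli1+ replicate 1 gave -0.83, and leaving out Gli1- replicate 1 gave -0.12. The intervals of *Fst*, *Fstl1* and *Fstl3* each include 0 and each reach from -1.46 to 0.96 or beyond. These libraries thus do not show that the levels of these genes were equal in both populations.

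The type I receptor gene *Acvr1b* (ENSMUSG00000000532, mm10, chromosome 15, 101174067 to 101213684, plus strand) was lower in Gli1+ cells within every replicate number. It was at 23.8, 13.0 and 17.4 CPM in Gli1+ replicates 1, 2 and 3 and at 42.0, 20.5 and 34.7 CPM in Gli1- replicates 1, 2 and 3. Only Gli1- replicate 2 and Gli1+ replicate 1 crossed, so that the populations overlapped by a single pair of libraries. The within-number log2 ratios were close together, at -0.82, -0.65 and -0.997. Of all genes tested, 19.9% were lower in Gli1+ cells in all 3 pairs.

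The log2FC of *Acvr1b* was -0.84 with a standard error of 0.45 and a 95% interval from -1.88 to 0.20 (unadjusted p = 0.0996, adjusted p = 0.9999, edgeR's quasi-likelihood test). With the replicate block it was -0.82 with a standard error of 0.27, an interval from -1.50 to -0.14, an unadjusted p of 0.0258 and an adjusted p of 0.505. At that unadjusted threshold the block fit had 8.61% of all genes. No fit called *Acvr1b*, and the lowest adjusted p among the alternatives was 0.0588, from DESeq2 with the block and both replicate 1 libraries left out. Without Gli1- replicate 1, the library with leukocyte RNA, the log2FC was -0.62, and without Gli1+ replicate 1 it was -1.12.

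*Acvr2a* (ENSMUSG00000052155, mm10, chromosome 2, 48814109 to 48903269, plus strand), the type II receptor gene with the higher level per length, had 42.2, 11.4 and 27.3 CPM in Gli1+ replicates 1, 2 and 3 and 14.1, 9.22 and 29.7 CPM in the Gli1- replicates. Its libraries were ordered much like those of *Inhba*, with both replicate 2 libraries low and Gli1+ replicate 1 high. Pearson's r of the log2 CPM of *Acvr2a* and *Inhba* was 0.937 over the 6 libraries, which share population, replicate number and library composition. It was the highest r of any pair within the group, and tested genes with an r this high to either gene were not counted. The log2FC of *Acvr2a* was 0.61 with a standard error of 0.63 and a 95% interval from -0.83 to 2.05. It came to 0.11 when Gli1+ replicate 1 was left out and to 0.46 when Gli1- replicate 1 was left out. The last bases of *Acvr2a* overlap *Orc4* on the opposite strand. The strand setting of the counting is not given, so reads in this overlap cannot be assigned with certainty.

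*Acvr2b* (ENSMUSG00000061393, mm10, chromosome 9, 119402118 to 119434995, plus strand) had the lowest level per length of the 8. It had 41, 35 and 13 counts in Gli1+ and 14, 13 and 15 counts in Gli1- cells, or 2.17, 2.15 and 0.68 CPM against 0.72, 0.86 and 0.79 CPM. Gli1+ replicates 1 and 2 were high, while Gli1+ replicate 3 lay below all Gli1- libraries. The log2FC was 1.06 with a standard error of 0.82 and a 95% interval from -0.83 to 2.96 (adjusted p = 0.9999, edgeR's quasi-likelihood test), and leaving out single libraries gave 0.80 (Gli1+ replicate 1) to 1.43 (Gli1+ replicate 3). Without Gli1- replicate 1 it was 0.996. Counts this low also carry sizeable counting error.

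**Figure D1:**
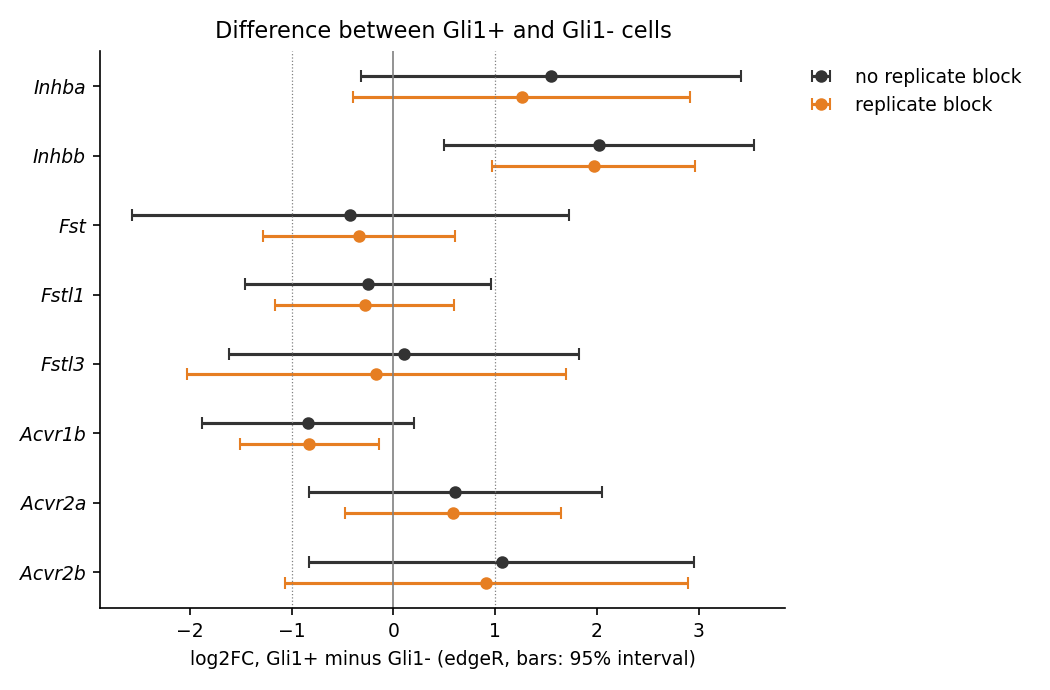
log2FC of the 8 genes (horizontal axis, Gli1+ minus Gli1- cells) with 95% intervals from edgeR, without the replicate block (black) and with it (orange); dotted lines mark a log2FC of -1 and 1. Without the block only the interval of *Inhbb* excludes 0, and with the block those of *Inhbb* (0.97 to 2.97) and *Acvr1b* (-1.50 to -0.14) do.

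Counted over the group, 0 of 8 genes were DEGs (adjusted p under 0.05, |log2FC| over 1) with edgeR's quasi-likelihood test, where 0% of all genes tested were. At an unadjusted p under 0.05, 1 of 8 (*Inhbb*, higher in Gli1+ cells) passed in edgeR's quasi-likelihood test, where 3.47% of all genes did, 1.43% higher and 2.04% lower in Gli1+ cells. The block fit had 2 of 8, *Inhbb* and *Acvr1b*, against 8.61% of all genes, 3.36% higher and 5.25% lower. DESeq2's Wald test with the block called 1 of 8, and of the genes it adjusted 0.879% were called higher and 2.39% lower. The log2FC was above 0 for 5 of the 8 genes and for 7413 of all 14801, and the median was 0.36 for the group against 0.0013 for all genes.

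**Figure D2:**
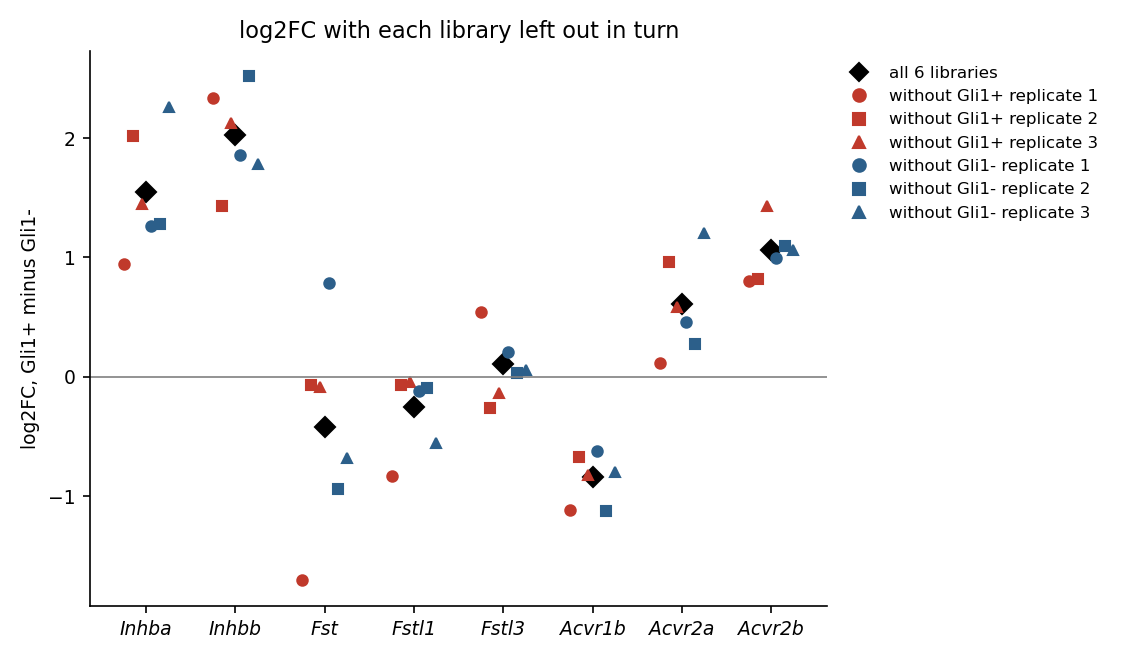
log2FC of the 8 genes (vertical axis) with all 6 libraries (black diamonds) and after removal of single libraries (red for a Gli1+ library, blue for a Gli1- library, shapes for replicate numbers). *Inhbb* stays between 1.43 and 2.52 and *Acvr1b* between -1.12 and -0.62, whereas *Fst* runs from -1.71 to 0.78.

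Levels of different genes were compared as CPM per kilobase of gene length. *Inhba* had the highest level in every library, from 42.1 to 356 CPM per kilobase. *Fstl1* followed, from 12.9 to 32.7, and the ranges of these genes did not overlap with each other or with the rest. *Acvr1b* (2.95 to 9.51 CPM per kilobase), *Acvr2a* (1.62 to 7.42), *Fst* (0.795 to 7.04), *Inhbb* (0.522 to 5.57) and *Fstl3* (0.368 to 2.11) came next in order of the mean, and each overlapped its neighbours in that order. *Acvr2b* was last, from 0.174 to 0.552 CPM per kilobase, and overlapped *Fstl3* and *Inhbb* in range. In Gli1+ cells *Inhbb* stood in place 5 at 3.35 ± 2.02 CPM per kilobase and in Gli1- cells in place 7 at 0.822 ± 0.438 CPM per kilobase (SD, n = 3 each). *Acvr1b* stood in place 4 in Gli1+ cells at 4.09 ± 1.23 and in place 3 in Gli1- cells at 7.33 ± 2.48 CPM per kilobase (SD, n = 3 each).

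**Figure D3:**
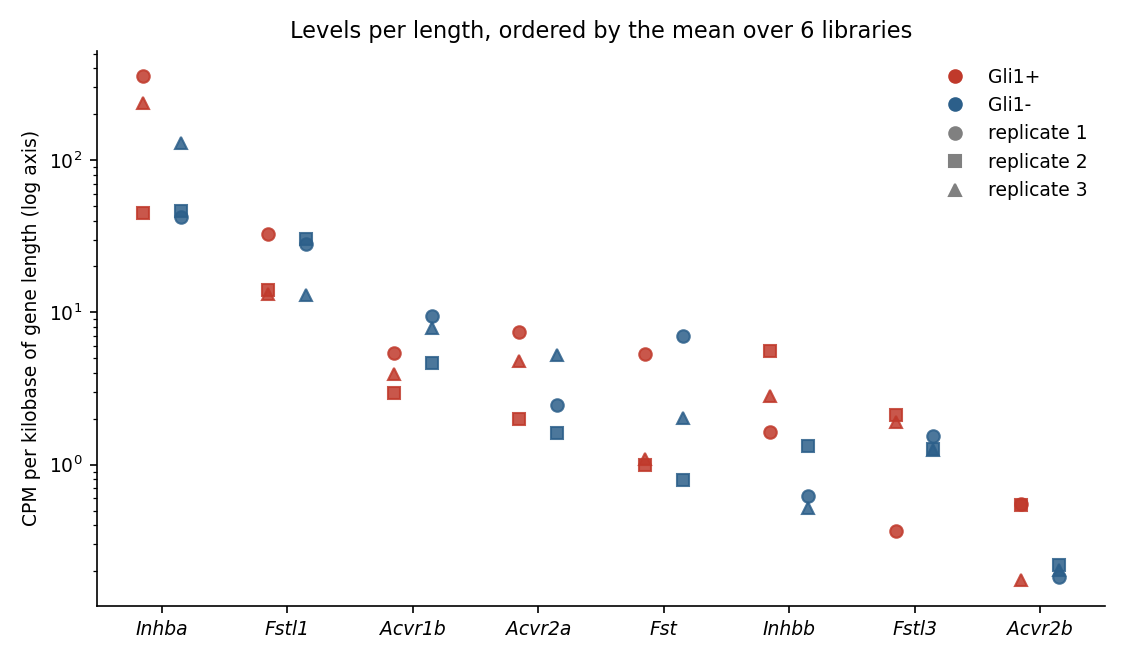
CPM per kilobase of gene length (vertical log axis) of the 8 genes, ordered by their mean over the 6 libraries, in Gli1+ (red) and Gli1- (blue) libraries with shapes for replicate numbers. *Inhba* (42.1 to 356) and *Fstl1* (12.9 to 32.7) stand clear of the others, whose ranges overlap from each gene to the next.

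Ratios between members within a library do not depend on its scaling. They were chosen after the values were seen, and 5 were tested. The βB transcript made up 0.459%, 11.1% and 1.18% of the summed per-length level of *Inhba* and *Inhbb* in Gli1+ replicates 1, 2 and 3, and 1.45%, 2.78% and 0.402% in the Gli1- replicates. *Inhbb* was thus a minor part of the activin subunit RNA in all 6 libraries, and its share was highest in the replicate 2 libraries. *Inhba* was at 62.9, 14.4 and 78.8 times the summed per-length level of *Fst* and *Fstl3* in Gli1+ replicates 1, 2 and 3 and at 4.90, 22.4 and 39.4 times in the Gli1- replicates. The lowest of these ratios belonged to Gli1- replicate 1. The difference in this log2 ratio between populations was 1.35 (2-sided exact permutation test, p = 0.3, 0.667 after Benjamini-Hochberg adjustment over the 5 ratios).

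The ratio of *Acvr2a* to *Acvr1b* separated the populations by a narrow margin. It was 1.38, 0.682 and 1.22 in Gli1+ replicates 1, 2 and 3 and 0.260, 0.350 and 0.665 in Gli1- replicates 1, 2 and 3, so the populations did not overlap, with the nearest values almost equal. The mean log2 ratio was 0.06 ± 0.54 in Gli1+ and -1.35 ± 0.69 in Gli1- cells (SD, n = 3 each). The exact permutation test gave its smallest possible p = 0.1 (0.5 after Benjamini-Hochberg adjustment over the 5 ratios). That adjustment does not cover the choice of the ratios after the values were seen. How often ratios of other genes separate the populations was not counted. *Acvr2b* made up 3.50% to 21.4% of the summed per-length level of the type II receptor genes in Gli1+ cells and 3.73% to 11.9% in Gli1- cells, and its log2 ratio to *Acvr2a* differed by 0.30 (exact permutation p = 1.0).

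**Figure D4:**
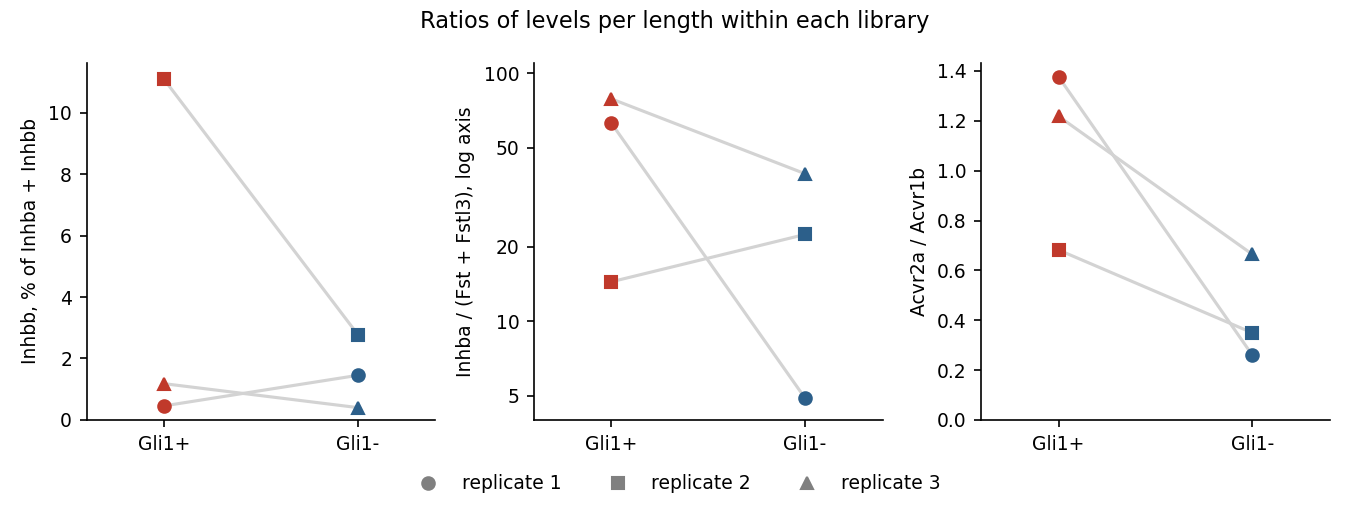
Ratios of per-length levels within each library: the share of *Inhbb* in *Inhba* plus *Inhbb* in percent (left), *Inhba* over *Fst* plus *Fstl3* (middle, log axis) and *Acvr2a* over *Acvr1b* (right), in Gli1+ (red) and Gli1- (blue) cells, with grey lines joining libraries of the same replicate number. Only the right panel keeps the populations apart, narrowly, at 0.682 to 1.38 against 0.260 to 0.665 (exact permutation test, p = 0.1). The ratios were chosen after the values were seen.

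The other genes of the pathway were taken from 6 lists with 47 distinct genes. Of other ligands in the activin branch, 3 of 8 passed the filter on low counts, 0 had an unadjusted p under 0.05, and the median log2FC was -1.03. *Inha*, the partner of both β subunits in the inhibins, was near the limit of detection, at 1.019 ± 0.88 (Gli1+) and 1.04 ± 0.36 CPM (Gli1-) (SD, n = 3 each). *Mstn*, which encodes myostatin, was at 0.27 ± 0.46 and 2.14 ± 2.86 CPM, and *Gdf11* at 0.57 ± 0.52 and 1.17 ± 0.33 CPM in Gli1+ and Gli1- cells (SD, n = 3 each). *Inhbc*, *Inhbe*, *Nodal*, *Gdf1* and *Gdf3* were too low to be tested.

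Among the other receptors and coreceptors, 7 of 9 genes were tested, 0 had an unadjusted p under 0.05, and the median log2FC was -0.77 against 0.0013 for all genes. The highest CPM, not corrected for length, was that of *Tgfbr3*, whose product betaglycan is a coreceptor for inhibin. Its level was 125 ± 39.1 (Gli1+) and 214 ± 48.9 CPM (Gli1-) (SD, n = 3 each), a log2FC of -0.77 with a standard error of 0.43, without overlap of the populations. *Acvr1*, a type I receptor that mainly serves BMPs, likewise did not overlap, at 94.8 ± 20.9 and 172 ± 37.9 CPM (SD, n = 3 each), or -0.86 on the log2FC scale (standard error 0.40). Over all genes tested, 4.45% did not overlap in this direction. *Tgfbr2*, the type II receptor of TGF-beta, had a log2FC of -0.03 with a standard error of 0.39.

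Other inhibitors and follistatin-like genes gave 4 of 9 tested genes, 0 with an unadjusted p under 0.05 and a median log2FC of -0.41. *Tmeff1*, a transmembrane protein with follistatin modules, led the list in CPM at 13.4 ± 2.71 (Gli1+) and 6.35 ± 1.34 CPM (Gli1-) (SD, n = 3 each). The log2FC of 1.08 (standard error 0.47) had an unadjusted p of 0.0503 in edgeR, and the populations did not overlap. Over all genes tested, 4.04% did not overlap with Gli1+ the higher. The Nodal antagonist *Lefty1* had a log2FC of -1.14 with a standard error of 1.55, and *Wfikkn1*, whose product binds myostatin, one of -0.37 with a standard error of 1.399. All 4 proprotein convertases, which cleave ligand precursors, were tested, with 0 at an unadjusted p under 0.05 and a median log2FC of -0.45. The log2FC was -0.47 for *Furin*, -0.44 for *Pcsk6* and -0.14 for *Pcsk7*, each with a standard error of 0.43 or more.

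Of 12 intracellular transducers and brakes, 11 were tested, with 0 higher and 1 lower at an unadjusted p under 0.05 and a median log2FC of -0.21. The lower gene was *Smad3*, a transducer that ACVR1B phosphorylates, at 73.4 to 103 CPM in the Gli1+ and 292 to 329 CPM in the Gli1- libraries (unadjusted p = 0.00164, adjusted p = 0.9999, edgeR). DESeq2 with the replicate block called *Smad3* at a log2FC of -1.79 (adjusted p = 1.04e-05), the single call of this list in that fit. Of all genes tested, 2.04% were lower in Gli1+ cells at an unadjusted p under 0.05 in edgeR. Of the genes DESeq2 adjusted with the block, 2.39% were called lower. *Smad2*, the other direct substrate of the receptor, was at 71.4 ± 10.8 (Gli1+) and 62.1 ± 4.26 CPM (Gli1-) (SD, n = 3 each), or 0.20 on the log2FC scale (standard error 0.35). *Smad4*, the shared partner of both, had a log2FC of -0.11 with a standard error of 0.37. The genes with the highest CPM beside *Smad3* were *Pmepa1*, a feedback inhibitor, with -0.63 on the log2FC scale (standard error 0.52), and the ubiquitin ligase gene *Smurf2*, with 0.35 (standard error 0.65).

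All 8 response genes were tested, a list that shares *Fst* and *Inhba* with the group and *Skil*, *Smad7* and *Pmepa1* with the transducers. At an unadjusted p under 0.05 there were 0 in either direction, and the median log2FC was -0.39. *Ctgf*, which encodes a matricellular protein, was at 7416 ± 3508 (Gli1+) and 4197 ± 1464 CPM (Gli1-) (SD, n = 3 each), a log2FC of 0.82 with a standard error of 0.61. The populations overlapped for *Ctgf*.

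The genes whose log2 CPM followed that of *Inhbb* most closely over the 6 libraries were *Lgals3bp* (Pearson's r = 0.991), *Cryba4* (0.988) and *Stambpl1* (0.988). With 6 libraries that share population and replicate number, 108 of the tested genes reached an r over 0.9. Within the group, *Acvr1b* ran opposite to *Inhbb*, with an r of -0.955 over the same libraries, and *Inhba* showed almost no relation to *Inhbb*, at 0.036. The former was the lowest r of any pair within the group, and tested genes with an r this low were not counted.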

How the data were processed

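The authors deposited a table of raw counts, the whole number of reads on each gene in each of 6 libraries, without normalization or pooling. The submitters' processing notes list HISAT2 2.0.5, featureCounts 1.5.0-p3 and the build mm10. The annotation and the strand setting are not given in the sources used here. All 8 genes had the coordinates of GENCODE M21. All 6 per-sample columns were mapped to a library, which left 0 unused. The table also gives gene lengths.
Low counts were removed by filterByExpr of edgeR at a minimum count of 10, libraries were scaled by TMM, and CPM were computed with the TMM library sizes (an offset of 0.5 for log2 CPM). The 3 Gli1+ and 3 Gli1- libraries entered the quasi-likelihood test of edgeR 4.0.16 under R 4.3.3 with Benjamini-Hochberg adjustment over 14801 genes, at an adjusted p under 0.05 and a |log2FC| over 1, the study's thresholds. DESeq2 1.42.0 and limma 3.58.1 (voom) served among 19 alternative settings. The fits were also run on simulated counts with known fold changes. Recovery was required only at a spread far below that of these libraries, so it does not show their power here. The biological coefficient of variation was 0.662, and 0.466 with the replicate block.
Across genes, the deviations from the population means correlated at 0.262, 0.763 and 0.487 between libraries numbered 1, 2 and 3. The study took both sorted fractions from the same animals, and each of the 3 correlations was above 0.1, so fits with the replicate number as a block were run as alternatives, while the main test and the permutation tests were unpaired. Gli1+ replicate 1 correlated somewhat better with Gli1- replicate 3 (0.334) than with Gli1- replicate 1. Gli1+ replicate 3 with Gli1- replicate 1 (0.15) was also above 0.1, so this limit does not single out equal numbers. No label ties a number to an animal.
The 8 genes, the pathway lists and the cell type markers were chosen with earlier results of these data known. The text names the 8 genes, *Gli1*, and, of each pathway list, the 3 tested genes with the highest mean CPM and those with an unadjusted p under 0.05. A gene of the response list that this rule names is not reported here. *Inhbc*, *Inhbe*, *Nodal*, *Gdf1*, *Gdf3*, *Smad2*, *Smad4*, *Ptprc*, *Col2a1*, *Acan*, *Sox9*, *Mmp13*, *Postn*, *Pdgfra*, *Orc4* and the genes overlapping *Inhba* were named after their values were seen. Marker lists of fibroblast, erythroid, endothelial, skeletal muscle, smooth muscle and hypertrophic cells were also summed. The sums were 1647 to 9585 CPM for fibroblast or perichondrium, 0 to 18.6 for erythroid, 1.16 to 11.8 for endothelial, 1.06 to 35.2 for skeletal muscle, 13.9 to 106 for smooth muscle or pericyte and 2238 to 9550 for hypertrophic chondrocyte markers. *Ccn2* is listed under its older symbol *Ctgf*. Python 3.11.15, pandas 2.3.3 and matplotlib 3.10.9 were used for promoter windows and figures.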

Additional observations from a re-analysis of the deposited data

How the results depend on the processing

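Across the alternative settings, *Inhba*, *Inhbb*, *Acvr1b*, *Acvr2a* and *Acvr2b* kept their direction in every fit that tested them, and *Inhbb* had a log2FC between 1.43 and 2.52. The number of DEGs among the 8 genes was 0 in all fits without DESeq2's replicate block and 1 (*Inhbb*) in DESeq2 with the replicate block. With libraries or pairs left out it was 0 to 1. The 1 was *Inhbb* in DESeq2 with the block and replicate 1 left out, beside 781 of 12953 genes. Over all genes tested, edgeR's quasi-likelihood test called 0 of 14801, 267 of 28536 without a filter on low counts, and DESeq2 with the block 428 of 13079. At an unadjusted p under 0.05 there was 1 gene, beside 514 of 14801 over all genes. There were 2 with DESeq2 without the block (*Inhba* and *Inhbb*, beside 717 of 14801), 2 without a filter on low counts (the same genes, beside 1316 of 28536), 2 with the edgeR replicate block (*Inhbb* and *Acvr1b*, beside 1274 of 14801) and 3 with DESeq2 and the block (*Inhba*, *Inhbb* and *Acvr1b*, beside 1734 of 14801). With libraries or pairs left out there were 0 to 2. The 0 was without Gli1- replicate 1, beside 279 of 15733. The 1 gene was *Inhba* in place of *Inhbb* without Gli1+ replicate 2 (beside 1199 of 15666) and without Gli1- replicate 3 (482 of 15453). It was *Inhbb* without Gli1+ replicate 1 (485 of 15644), Gli1+ replicate 3 (323 of 15520) or Gli1- replicate 2 (511 of 15698). DESeq2 with the block had 2 without replicate 1 (*Inhbb* and *Acvr1b*, beside 2657 of 15331). It also had 2 (*Inhba* and *Inhbb*) without replicate 2 (1152 of 15195) or 3 (1113 of 14741). The sign of *Fstl3* reversed with limma-voom (-0.27), the edgeR replicate block (-0.17) and DESeq2 with the block (-0.18), and its log2FC lay between -0.26 and 0.54 with single libraries left out and was 0.66, -0.73 and -0.64 with DESeq2, the block and replicate 1, 2 or 3 left out. With single libraries left out *Fst* ran from -1.71 to 0.78 and *Fstl1* from -0.83 to -0.04, and *Fstl1* reversed to 0.11 with DESeq2, the block and replicate 2 left out. The causes were not tested. *Acvr2b* did not pass the stricter filter of at least 1 CPM in 3 libraries. Fits that left out a library of a population rested on 2 libraries of it.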
